A study of Mus musculus with 8 samples.

Results

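The keratin genes of the mouse lie in 2 clusters, one on chromosome 11 and one on chromosome 15, and 53 of them were read here in a map of the histone mark H3K27me3 in primordial germ cells (PGCs), from which eggs and sperm arise. A gene was taken when it lay on chromosome 11 or 15 and its symbol was Krt followed by digits and at most 1 letter, which left out the keratin-associated proteins (Krtap). This gave 53 of the 21352 genes measured, 27 on chromosome 11 (chr11:99232761-100269951) and 26 on chromosome 15 (chr15:101348315-102032026), in coordinates of GRCm38.p6. By where their proteins are known to be made, 4 belong to simple epithelia, 20 to the epidermis and other stratified epithelia, 8 to the inner root sheath or companion layer of the hair follicle and 15 to the hair shaft, and 6 were not placed.

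Keratins build the intermediate filaments of epithelial cells, each filament from pairs of a type I keratin, nearly all encoded on chromosome 11, and a type II keratin, encoded on chromosome 15. Krt8 and Krt18 are the pair of simple epithelia, Krt5 and Krt14 that of the basal epidermis, and Krt1 and Krt10 that of its upper layers, while hair and its sheaths use keratins of their own. H3K27me3 is placed by Polycomb repressive complex 2 and is known to cover silent genes of other lineages in embryonic cells.

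The assay was CUT&RUN, in which an antibody tethers a nuclease that cuts out the DNA at its target, and an IgG antibody gives the cuts made without one. All cells were PGCs of B6 x Cast crosses that also carried Oct4-eGFP+/-. There were 5 groups of 1 library each. H3K27me3 was mapped in Xist KO/+ females at E12.5 and E11.5, and IgG in Xist KO/Y males at E11.5 and in Xist KO/+ females at E12.5 and E13.5. The mark was not mapped in males or in animals without the Xist deletion, and each library is a pool of sorted cells.

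The counts are reads that could be assigned to 1 of 2 alleles. The H3K27me3 libraries had 5020062 such reads on chromosomes 1 to 19 at E12.5 and 2356356 at E11.5, and the IgG libraries had 1357583 (E11.5), 1515532 (E12.5) and 5705401 (E13.5). A keratin had a median of 133 and 58 reads in H3K27me3 at E12.5 and E11.5, and of 12, 16 and 45 reads in the IgG libraries from E11.5 to E13.5. With 1 library a group no spread between replicates could be measured, so no difference between conditions was tested, and intervals and p-values cover the error of counting reads alone. The male control of E11.5 differs from the H3K27me3 library in sex as well as antibody, and these cannot be told apart. Genes that mark PGCs, such as Kit, Ddx4 and Nanos3, carried little of the mark: their median log2 ratio of H3K27me3 over IgG was -0.98 over 10 genes at E12.5 and -1.01 over 6 genes at E11.5. Somatic gonad markers stood at 2.03 and 2.50 over 7 genes, blood and endothelium markers at 0.77 and 0.84 over 7 genes, and surface epithelium markers at -1.10 and -0.67 over 5 genes, at E12.5 and E11.5 in each case. The surface epithelium list (Trp63, Epcam, Cdh1, Grhl2 and Esrp1) was divided, with 2 genes above IgG and 3 below at E12.5, and 1 above and 4 below at E11.5. These lists read the mark, not expression, and the part of cells other than PGCs in the keratin values was not tested.

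Promoter sequences of 4 keratins are shown as examples from the range described in the following paragraphs. Krt18 and Krt9 were among the 5 keratins with the highest ratio of H3K27me3 to IgG at both stages. Krt7, of the same simple epithelia as Krt18, stayed below 2-fold over the stage-matched IgG, and Krt5, the basal epidermal type II keratin, had few reads in every library. The 250 bases before each RefSeq start site (GRCm38.p6) run 5′ to 3′ on the gene's strand, with CG dinucleotides in capitals. They are chr15:102027966-102028215, plus strand (Krt18), chr11:100193247-100193496, minus strand (Krt9), chr15:101412153-101412402, plus strand (Krt7), and chr15:101712906-101713155, minus strand (Krt5).
Krt18: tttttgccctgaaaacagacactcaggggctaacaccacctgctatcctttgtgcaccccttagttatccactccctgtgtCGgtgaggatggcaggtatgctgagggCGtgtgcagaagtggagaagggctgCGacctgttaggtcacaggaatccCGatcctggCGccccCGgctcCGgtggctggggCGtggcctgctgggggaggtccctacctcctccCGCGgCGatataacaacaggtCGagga
Krt9: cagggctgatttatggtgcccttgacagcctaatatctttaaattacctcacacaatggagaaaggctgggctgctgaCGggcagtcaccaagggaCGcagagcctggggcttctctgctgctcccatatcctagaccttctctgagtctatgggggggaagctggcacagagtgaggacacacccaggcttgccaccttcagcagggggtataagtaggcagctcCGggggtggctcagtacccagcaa
Krt7: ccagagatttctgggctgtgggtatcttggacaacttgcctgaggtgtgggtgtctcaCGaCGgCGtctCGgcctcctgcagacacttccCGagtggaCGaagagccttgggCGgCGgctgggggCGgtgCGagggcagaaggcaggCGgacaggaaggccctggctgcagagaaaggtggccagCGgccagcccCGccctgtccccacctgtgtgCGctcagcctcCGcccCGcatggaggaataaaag
Krt5: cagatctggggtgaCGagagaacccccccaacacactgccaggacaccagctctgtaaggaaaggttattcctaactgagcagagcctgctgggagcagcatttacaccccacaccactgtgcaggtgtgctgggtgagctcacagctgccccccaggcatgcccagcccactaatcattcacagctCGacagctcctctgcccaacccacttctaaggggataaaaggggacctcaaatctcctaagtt
The Krt7 window shown holds 16 CG dinucleotides and that of Krt18 holds 12, while that of Krt9 holds 3 and that of Krt5 holds 2. These 4 promoters were picked as examples and do not show how the CG count relates to the mark.

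Counted over 300 bases around the start (250 before and 50 after), CG dinucleotides numbered 2 to 21 in 30 keratin promoters, with a median of 4.5, against a median of 7 over all 32851 promoters of the RefSeq table. These 30 were the keratins whose start in that table lay within 100 bases of the annotated gene start, and Krt7 had the highest count among them. In this longer window Krt18 had 17, Krt5 had 6 and Krt9 had 4. The Spearman correlation of this count with the log2 ratio of H3K27me3 over the stage-matched IgG was 0.04 at E12.5 (30 keratins). At E11.5 it was -0.15 (26 keratins). The letters TATAAA, searched on both strands, stood in 17 of the 30 (56.7%), among them Krt8, Krt28 and Krt20, and in 13.6% of all promoters of that length. Of the 4 promoters shown, none holds TATAAA on either strand. The match is to letters and does not show a binding site.

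In both H3K27me3 libraries the keratins as a whole stood above IgG. They took 0.165% of the reads of chromosomes 1 to 19 in H3K27me3 at E12.5 and 0.157% at E11.5, against 0.0558%, 0.0680% and 0.0451% in IgG at E11.5, E12.5 and E13.5. Levels were compared as reads per 1000000 reads of chromosomes 1 to 19 (RPM), as log2 ratios with 1 RPM added to each side, for genes with at least 20 reads in both libraries together. At E12.5 the median log2 ratio over the stage-matched IgG was 1.04 over 52 keratins, against -0.54 over all genes tested. At E11.5 it was 1.38 over 47 keratins, against -0.49 over all genes tested. Summed over the 53, the keratins were 2.43-fold over IgG at E12.5 (95% counting interval 2.28 to 2.60) and 2.82-fold at E11.5 (2.61 to 3.05).

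On this scale, with 1 RPM added, at or above 2-fold means a log2 ratio of at least 1, here and in all such counts. At E12.5, 26 of 52 keratins were at or above 2-fold over IgG, while 15.2% of all genes tested were. At E11.5 this held for 30 of 47 keratins and 17.2% of all genes. The same shares of all genes, 15.2% and 17.2%, are the background of the counts given below for the keratin groups over the stage-matched IgG. Only 1 keratin at E12.5, Krt10, and 0 at E11.5 were at or below 0.5-fold, against 29.5% and 29.7% of all genes. The counting interval of the ratio lay above 1 for 37 of 52 keratins at E12.5 (23% of all genes) and for 34 of 47 at E11.5 (23.3% of all genes). Over the deeper IgG of E13.5, the keratin median was 1.73 at E12.5, with 39 of 52 keratins at or above 2-fold (15.9% of all genes), and 1.72 at E11.5, with 35 of 50 (16.8% of all genes). These last comparisons share that control.

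The same 23 keratins reached 2-fold at both stages over both controls, of the 47 tested in all 4 of these comparisons. Among all genes tested in all 4, 11.1% did. They were type I keratins of chromosome 11 (Krt9, Krt12, Krt13, Krt14, Krt15, Krt16, Krt17, Krt19, Krt24, Krt25 and Krt28), with Krt18 of chromosome 15, and type II keratins of chromosome 15 (Krt1, Krt2, Krt8, Krt75, Krt76, Krt77, Krt82, Krt84, Krt86, Krt87 and Krt90). Another 9 of the 47 were below 2-fold in each, against 76.5% of all genes: Krt6a, Krt7, Krt20, Krt23, Krt27, Krt33b, Krt39, Krt88 and Krt222. Without the added 1 RPM, Krt7 at E11.5 and Krt6a and Krt27 at E12.5 were just above 2-fold over the IgG of E13.5 (2.02, 2.05 and 2.03), and Krt33b was 2.09-fold over the IgG of E12.5 at E12.5.

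**Figure D1:**
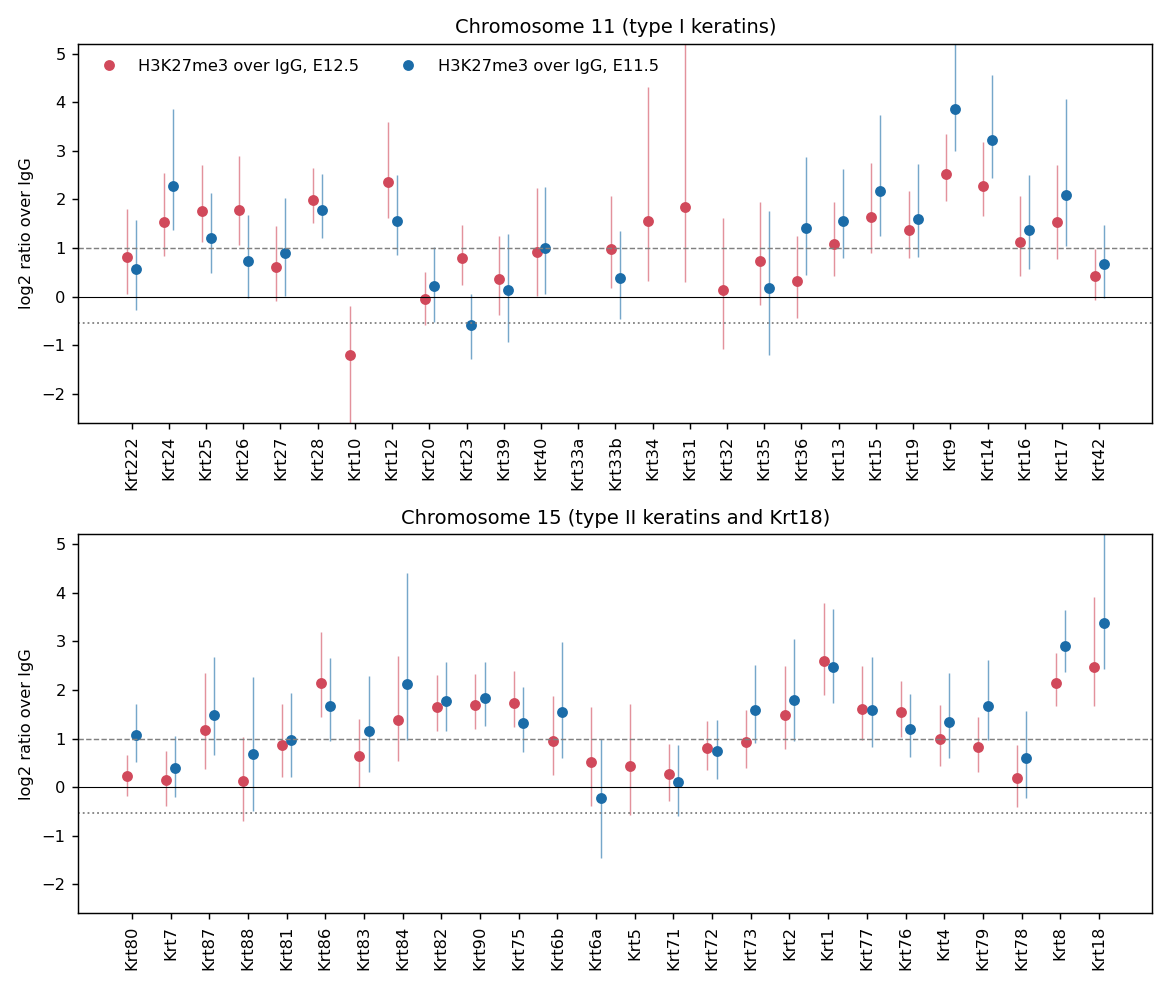
Log2 ratio of H3K27me3 to stage-matched IgG for each keratin in chromosomal order (points, red E12.5, blue E11.5), with 95% counting intervals of the ratio without added reads as lines, some of which run past the axis. The dashed line marks 2-fold and the dotted line the median of all genes at E12.5 (-0.54). Krt13 to Krt17 on chromosome 11 and Krt82 to Krt75, Krt2 to Krt4 and Krt8 to Krt18 on chromosome 15 stand high, while Krt20 to Krt39, Krt10 and Krt6a to Krt71 lie lower. Genes with fewer than 20 reads have no point.

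The simple-epithelial keratins held both some of the most heavily marked keratins and one, Krt7, with a low ratio. Their median log2 ratio was 1.76 at E12.5 and 2.25 at E11.5, and 3 of the 4 (Krt8, Krt18 and Krt19) were at or above 2-fold at each stage. Krt8 (chr15:101996711-102004342), the type II keratin of simple epithelia, had 96.4 RPM at E12.5 and 133 RPM at E11.5 in H3K27me3, against 16.9, 21.1 and 12.4 RPM in IgG at E11.5, E12.5 and E13.5. Both H3K27me3 values were far above the highest IgG value. The ratio to the stage-matched IgG was 4.57-fold at E12.5 (95% counting interval 3.19 to 6.75) and 7.87-fold at E11.5 (5.15 to 12.6).

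Krt18 (chr15:102028216-102032026), the type I partner of Krt8 and its neighbour, is the one type I keratin outside chromosome 11. It had 33.7 RPM at E12.5 and 48.0 RPM at E11.5 in H3K27me3, against 3.68, 5.28 and 4.56 RPM in IgG at E11.5, E12.5 and E13.5. The H3K27me3 libraries were both far above the IgG libraries, in which Krt18 had 5, 8 and 26 reads. It stood at 6.38-fold over IgG at E12.5 (3.16 to 15.0) and 13.02-fold at E11.5 (5.42 to 40.9), among the 5 highest log2 ratios of the keratins at each stage.

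Krt19 (chr11:100140810-100145926), a type I keratin of simple and ductal epithelia, had 37.6 RPM at E12.5 and 28.9 RPM at E11.5 in H3K27me3, against 8.84, 13.9 and 7.01 RPM in IgG at E11.5, E12.5 and E13.5. Both H3K27me3 values lay above the highest IgG value. The ratio to the stage-matched IgG was 2.72-fold (1.73 to 4.49) at E12.5 and 3.26-fold (1.75 to 6.63) at E11.5. Krt7 (chr15:101412403-101427806), a type II keratin of ducts and glands, had 25.7 RPM at E12.5 and 32.3 RPM at E11.5 in H3K27me3, against 24.3, 23.1 and 15.9 RPM in IgG at E11.5, E12.5 and E13.5. Over the stage-matched IgG its counting interval included 1 at both stages, with 1.113-fold (0.761 to 1.67) at E12.5 and 1.33-fold (0.871 to 2.06) at E11.5. Over the deeper IgG of E13.5 the interval lay above 1, with 1.61-fold (1.22 to 2.13) at E12.5 and 2.02-fold (1.47 to 2.77) at E11.5.

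Because 1 of its 4 members is low, the simple-epithelial median depends on which genes are listed. Krt20 and Krt23 are also known from simple epithelia, of the gut in the case of Krt20. With both added, the median of the 6 was 1.09 at E12.5 and 0.998 at E11.5, against 1.10 and 1.42 for the epidermal and hair keratins together (42 genes at E12.5 and 37 at E11.5). The difference between simple-epithelial and other keratins was not tested, and their ranges overlapped: from 0.15 to 2.46 in the simple-epithelial list and from -1.20 to 2.60 in the epidermal and hair list at E12.5.

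**Figure D2:**
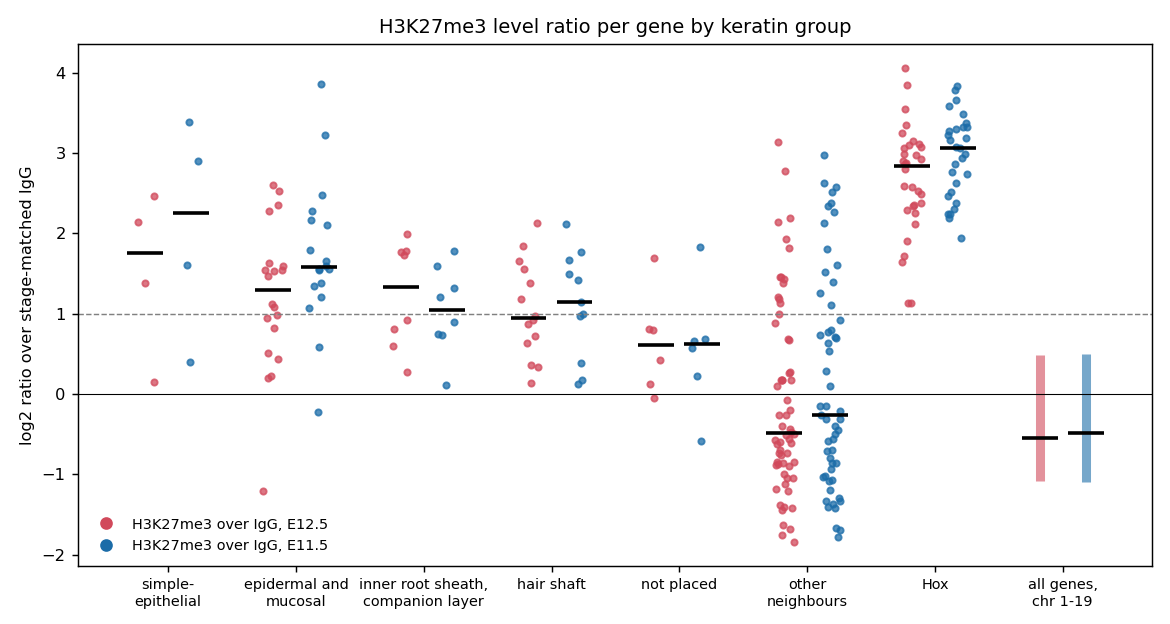
Log2 ratio of H3K27me3 to stage-matched IgG per gene (points, red E12.5, blue E11.5) by keratin group, with other neighbours of the clusters, Hox genes and all genes of chromosomes 1 to 19 for scale. Neighbours inside the clusters and beyond them are drawn together. Black bars are medians, the wide bars at the right span the middle 50% of all genes, and the dashed line marks 2-fold. The simple-epithelial and epidermal medians lie above the dashed line at both stages, the hair shaft median at E12.5 (0.95) just under it, and all keratin medians above those of neighbours and of all genes.

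Epidermal and mucosal keratins had a median log2 ratio of 1.30 at E12.5 (12 of 20 at or above 2-fold) and 1.58 at E11.5 (16 of 18). The highest at E11.5 was Krt9 (chr11:100186781-100193246), a type I keratin of the thick skin of palms and soles. It had 81.1 RPM at E12.5 and 78.1 RPM at E11.5 in H3K27me3, against 4.42, 13.2 and 11.4 RPM in IgG at E11.5, E12.5 and E13.5. The ratio was 6.14-fold at E12.5 (3.93 to 10.2) and 17.7-fold at E11.5 (7.96 to 48.8), the second resting on 6 reads in the male IgG library. Over the IgG of E13.5 its log2 ratio was 2.73 at E12.5 and 2.67 at E11.5, so the stages were close where the control was the same.

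In the pair of the basal epidermis the type I member stood clear of IgG, while its partner had too few reads to tell. The difference between the partners was not tested. Krt14 (chr11:100203162-100207510), the basal type I keratin, had 58.2 RPM at E12.5 and 70.4 RPM at E11.5 in H3K27me3, against 6.63, 11.2 and 7.54 RPM in IgG at E11.5, E12.5 and E13.5. Its partner Krt5 (chr15:101707069-101712905) had 8.37 RPM at E12.5 and 4.24 RPM at E11.5 in H3K27me3, against 3.68, 5.94 and 5.78 RPM in IgG at E11.5, E12.5 and E13.5. Krt14 was 5.19-fold (3.18 to 9.02) and 10.6-fold (5.46 to 23.6) over IgG at E12.5 and E11.5, while Krt5 was 1.41-fold at E12.5 (0.676 to 3.29) and had too few reads at E11.5, 10 against 5.

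In the pair of the upper layers the type II member stood clear of IgG, while its partner, with few reads, did not. Here too the difference was not tested. Krt1 (chr15:101845426-101850786) had 49.2 RPM at E12.5 and 49.7 RPM at E11.5 in H3K27me3, against 8.10, 7.26 and 5.78 RPM in IgG at E11.5, E12.5 and E13.5. Its partner Krt10 (chr11:99385254-99397449) had 2.59 RPM at E12.5 and 1.27 RPM at E11.5 in H3K27me3, against 2.21, 7.26 and 2.63 RPM in IgG at E11.5, E12.5 and E13.5. Krt1 was 6.78-fold (3.72 to 13.8) and 6.13-fold (3.30 to 12.6) over IgG at E12.5 and E11.5, whereas Krt10 was 0.357-fold at E12.5 (0.147 to 0.880), on 13 reads against 11. Over the IgG of E13.5 the log2 ratio of Krt10 at E12.5 was -0.02.

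Other epidermal and mucosal keratins high for the mark were Krt12, the type I keratin of the cornea, with log2 ratios of 2.35 at E12.5 and 1.55 at E11.5, and Krt24, at 1.54 and 2.28. Krt15, a keratin of basal and hair follicle stem cells, stood at 1.63 and 2.17, and Krt17, an early keratin of skin appendages, at 1.55 and 2.10. Krt6a, a type II keratin induced in wounded skin, stood at 0.51 at E12.5 and -0.22 at E11.5, with counting intervals that included 1. Its near copy Krt6b stood at 0.95 and 1.54, and how the authors divided reads between such close copies is unknown. The same uncertainty holds for Krt16, Krt17 and Krt42, for Krt31, Krt33a, Krt33b and Krt34, and for Krt81, Krt83, Krt86 and Krt87.

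Keratins of the inner root sheath and companion layer had a median log2 ratio of 1.33 at E12.5 and 1.05 at E11.5, with 4 of 8 at or above 2-fold at each stage. Krt28 had 79.3 RPM at E12.5 and 63.2 RPM at E11.5 in H3K27me3, against 17.7, 19.1 and 13.7 RPM in IgG at E11.5, E12.5 and E13.5. Krt75, the keratin of the companion layer, had 65.7 RPM at E12.5 and 47.5 RPM at E11.5 in H3K27me3, against 18.4, 19.1 and 9.46 RPM in IgG at E11.5, E12.5 and E13.5. Both stood clear of all 3 controls. Krt71, an inner root sheath keratin whose mutations give curly coats in mice, had log2 ratios of only 0.27 at E12.5 and 0.11 at E11.5.

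Hair shaft keratins had a median log2 ratio of 0.95 at E12.5 (6 of 14 at or above 2-fold) and 1.15 at E11.5 (6 of 11). Krt82, a type II keratin of the hair cuticle, had 62.5 RPM at E12.5 and 55.2 RPM at E11.5 in H3K27me3, against 15.5, 19.1 and 11.9 RPM in IgG at E11.5, E12.5 and E13.5. Krt86, a type II keratin of the hair cortex, had 41.0 RPM at E12.5 and 37.3 RPM at E11.5 in H3K27me3, against 11.05, 8.58 and 8.06 RPM in IgG at E11.5, E12.5 and E13.5. The type I hair keratins of chromosome 11 had few reads: Krt33a had 6 and 5 reads in H3K27me3 at E12.5 and E11.5 and entered no comparison, and Krt31, Krt32, Krt34 and Krt35 had 25, 26, 39 and 58 reads at E12.5. The lowest log2 ratios among those tested were 0.14 for Krt32 at E12.5, and 0.13 for Krt39 and 0.17 for Krt35 at E11.5.

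Among the 6 keratins not placed, Krt90 alone was at or above 2-fold over the stage-matched IgG, with 66.3 RPM at E12.5 and 65.4 RPM at E11.5 in H3K27me3, against 17.7, 19.8 and 11.2 RPM in IgG at E11.5, E12.5 and E13.5. Krt20 stood at -0.05 at E12.5 and 0.22 at E11.5 on the log2 scale, and scaling each library to the median ratio of all genes turned its E12.5 value positive (0.52). Krt88 stood at 0.12 and 0.69, Krt222 at 0.81 and 0.58, and Krt42 at 0.43 and 0.67. Over the IgG of E13.5 Krt42 was at or above 2-fold as well, with log2 ratios of 1.36 at E12.5 and 1.004 at E11.5. Krt23 had 31.7 RPM at E12.5 and 18.2 RPM at E11.5 in H3K27me3, against 28.0, 17.8 and 21.0 RPM in IgG at E11.5, E12.5 and E13.5.

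**Figure D3:**
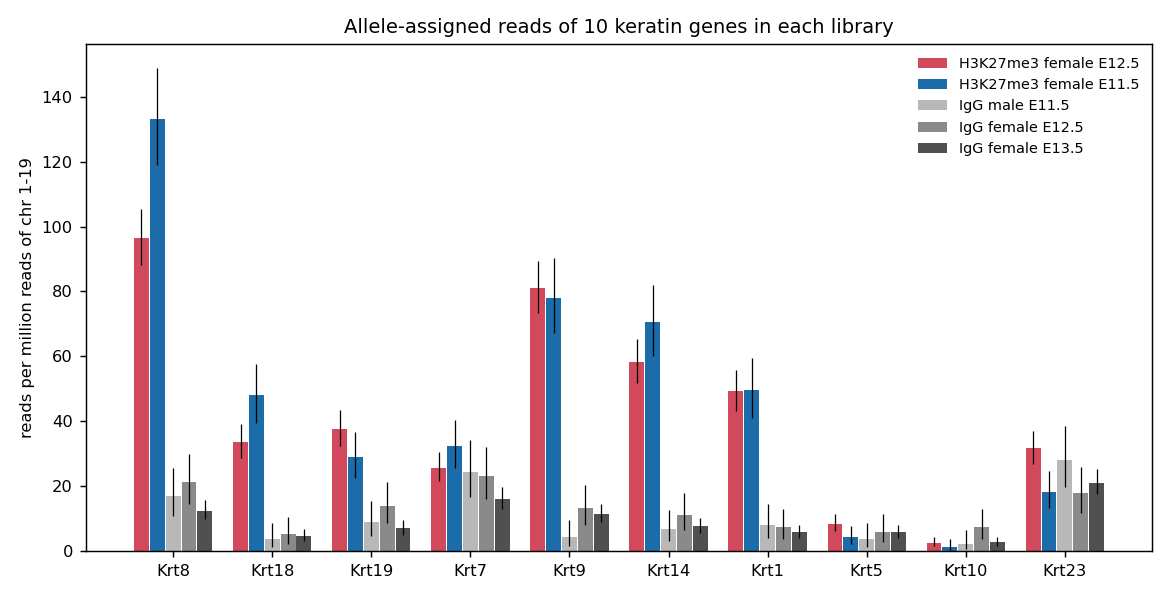
Allele-assigned reads in RPM (vertical axis) of 10 keratins in each library, with 95% Poisson intervals that cover counting error only. Krt8, Krt18, Krt19, Krt9, Krt14 and Krt1 are above all 3 IgG libraries (grey) in both H3K27me3 libraries (red E12.5, blue E11.5), whereas Krt7, Krt5, Krt10 and Krt23 are not clear of them in both. Bars compare libraries within a gene and not genes of different length.

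Per length, Krt8, Krt9, Krt14, Krt1 and Krt18 carried the most H3K27me3 reads of the keratins, in an order that differed between the stages. At E12.5 Krt14 had 13.3, Krt9 12.54 and Krt8 12.4 RPM per kb of the counted gene length, and at E11.5 Krt8 had 17.1, Krt14 16.1, Krt18 12.46 and Krt9 12.1 RPM per kb. Krt7 had 1.33 and 1.67 RPM per kb at E12.5 and E11.5, and Krt33a and Krt10 had the lowest values, 0.238 and 0.630 at E12.5. The order of Krt14, Krt9 and Krt8 at E12.5 lies within counting error. Reads per length also depend on how many positions of a gene differ between both strains, which was not tested.

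Along the chromosomes several high and several low keratins stood side by side. On chromosome 11 the genes Krt13, Krt15, Krt19, Krt9, Krt14, Krt16 and Krt17 follow each other, and all 7 were at or above 2-fold at both stages. Krt20, Krt23 and Krt39 also follow each other and were all below 2-fold. On chromosome 15, Krt82, Krt90 and Krt75 were neighbours at or above 2-fold, and Krt6a, Krt5 and Krt71 were neighbours that were not, over the stage-matched IgG. Low genes also stood alone: Krt10 lies between Krt28 (log2 ratio 1.995 at E12.5) and Krt12 (2.35). By chromosome, the median was 1.10 at E12.5 and 1.29 at E11.5 on chromosome 11, and 0.97 and 1.49 on chromosome 15.

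Genes beyond the ends of the clusters carried less of the mark than the keratins at the median. Among the 68 other genes up to 500 kb beyond the clusters, the median log2 ratio was -0.54 at E12.5 over 58 genes and -0.31 at E11.5 over 52, close to that of all genes. At or above 2-fold were 11 of the 58 and 13 of the 52, against 15.2% and 17.2% of all genes. Inside the clusters, 16 genes that are neither keratins nor Krtap had few reads, and the 4 tested at E12.5 and 3 at E11.5 had medians of 1.09 and 0.80. The keratin medians were 1.04 and 1.38, so these few genes were not lower than the keratins at E12.5. Of the 22 Krtap genes in the same windows, 6 had enough reads at E12.5, with a median of 0.36, and 0 at E11.5. Over all 50 Krtap genes, which encode the matrix proteins around hair keratins, the median was 0.91 over 14 genes at E12.5 and 0.70 over 4 genes at E11.5.

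Other genes of the epithelial programme varied. For scale, 15.2% of all genes tested at E12.5 and 17.2% at E11.5 were at or above 2-fold. The epidermal differentiation complex, which encodes proteins of the cornified envelope, had a median of 0.45 at E12.5 (7 of 23 at or above 2-fold) and 0.98 at E11.5 (4 of 8). Desmosome genes, whose proteins anchor keratin filaments, had medians of -0.33 and -0.54, and 1 of 11, Pkp1, was at or above 2-fold at each stage. Transcription factors of epidermis and hair had medians of -0.01 at E12.5 (5 of 16 at or above 2-fold) and 0.54 at E11.5 (6 of 15). The other intermediate filament genes had medians of 0.20 and 0.64, with 5 of 13 at or above 2-fold at each stage. On the same scale, Hox genes, which are known Polycomb targets, had medians of 2.83 at E12.5 and 3.07 at E11.5, with all 32 and all 29 tested at or above 2-fold, and housekeeping genes -1.01 over 10 genes and -1.22 over 6.

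The keratins changed little between the stages. Over 51 keratins the median log2 ratio of H3K27me3 at E12.5 to that at E11.5 was 0.13, against 0.01 over all genes tested. At or above 2-fold was 1 keratin, Krt31, with 25 reads at E12.5 and 4 at E11.5, while 0.756% of all genes were, and 0 keratins were at or below 0.5-fold (0.787% of all genes). The counting interval lay above 1 for 6 keratins (Krt23, Krt28, Krt31, Krt35, Krt75 and Krt76, against 7.91% of all genes) and below 1 for 2, Krt8 and Krt18 (10.4% of all genes).

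Krt8 and Krt18 were the 2 of 51 keratins whose counting interval lay below 1, a smaller share than the 10.4% of all genes. The ratio was 0.724-fold for Krt8 (0.626 to 0.837) and 0.702-fold for Krt18 (0.550 to 0.899), and among all genes these values lay at the percentiles 9.07 and 7.81. Of the other simple-epithelial keratins, Krt7 was at 0.797-fold (0.596 to 1.07) and Krt19 at 1.30-fold (0.984 to 1.75). The next lowest were Krt87, Krt40 and Krt36, with log2 ratios of -0.45, -0.34 and -0.34, and intervals that included 1. Behind Krt31 the highest were Krt35 (0.85), Krt5 (0.84), Krt23 (0.76) and Krt6a (0.59), on 14, 10, 43 and 16 reads at E11.5. Keratins of the inner root sheath and companion layer had a median of 0.33, those of the hair shaft 0.13 and the epidermal and mucosal keratins 0.05.

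The controls differed from each other at these genes as well. The IgG of E13.5 was lower than that of E12.5, with a median log2 ratio of -0.60 over 50 keratins, against -0.12 over all genes. At or below 0.5-fold were 4 keratins, Krt10, Krt36, Krt72 and Krt80 (5.62% of all genes), and 0 were at or above 2-fold (3.72% of all genes). Krt72 was lowest (-1.43), followed by Krt10 (-1.19), and the highest were Krt222 (0.59) and Krt26 (0.51). The interval lay below 1 for 18 of 50 (25.3% of all genes).

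Reads of both alleles contributed to the keratins in nearly equal parts. The share on the second allele, named by the order of the columns because the sources used here do not say which strain it is, had a median of 49.5% over 52 keratins at E12.5 and 48.9% over 50 keratins at E11.5, among keratins with at least 10 reads. Within each library, a gene's share was set against the pooled share of chromosomes 1 to 19 (50.9% at E12.5 and 51.6% at E11.5) with an exact two-sided binomial test, adjusted by Benjamini-Hochberg over all genes of chromosomes 1 to 19 and X. These tests compare reads of a library, not conditions. In the IgG libraries they called 1 keratin at E11.5 (Krt90, 4.21% of all genes), 2 at E12.5 (Krt7 and Krt87, 3.46%) and 4 at E13.5 (Krt7, Krt82, Krt87 and Krt90, 7.88%). In H3K27me3 they called 12 keratins at E12.5 (17.9% of all genes of chromosomes 1 to 19) and 10 at E11.5 (12.1%), of which 7 were called at both stages. The share of all genes called at both stages is not given here, so 7 cannot be read as many or few.

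The 7 keratins called at both stages leaned the same way in both. Krt87, Krt90, Krt82 and Krt18 leaned to the second allele, and Krt19, Krt9 and Krt42 to the first. Krt87, a hair shaft keratin, had 88 of 89 reads on the second allele at E12.5 and 56 of 58 at E11.5 in H3K27me3, against 10 of 11, 11 of 11 and 23 of 26 in IgG at E11.5, E12.5 and E13.5. Krt90 had 79.9% at E12.5 and 74.0% at E11.5 in H3K27me3, against 91.7%, 73.3% and 89.1% in IgG, in the same order of stages. Krt82 had 74.2% and 67.7% in H3K27me3, against 52.4%, 69.0% and 72.1% in IgG. Of these, Krt87, Krt90 and Krt82 were also called in the IgG of E13.5, as was Krt7. The lean of these genes to the second allele was thus also seen in the IgG of E13.5. In the IgG of E11.5 Krt82 was near even, at 52.4% on 21 reads.

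Krt18 had 73.4% of its reads on the second allele at E12.5 (95% Clopper-Pearson interval 66.0 to 79.9) and 68.1% at E11.5 (58.7 to 76.6). In the IgG of E13.5 it had 57.7% (36.9 to 76.6), on 26 reads, an interval that held both H3K27me3 shares. Krt8 had 58.5% (53.9 to 62.9) at E12.5 and 53.8% (48.1 to 59.4) at E11.5 in H3K27me3, against 36.6% (25.5 to 48.9) in the IgG of E13.5. In the stage-matched IgG libraries it had 43.8% (26.4 to 62.3) at E12.5, on 32 reads, and 52.2% (30.6 to 73.2) at E11.5, on 23 reads.

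Krt19 leaned the other way, with 34.4% of its reads on the second allele at E12.5 (27.6 to 41.6) and 29.4% at E11.5 (18.98 to 41.7) in H3K27me3. In IgG it had 41.7%, 57.1% and 62.5% at E11.5, E12.5 and E13.5, on 12, 21 and 40 reads. Krt9 had 38.1% (33.3 to 43.0) at E12.5 and 37.0% (30.0 to 44.4) at E11.5 in H3K27me3, against 46.2% (33.7 to 59.0) in the IgG of E13.5. In the IgG of E12.5 it had 65.0% (40.8 to 84.6), on 20 reads, and in that of E11.5 it had only 6 reads. Krt42 had 28.1% (21.5 to 35.4) and 27.4% (16.9 to 40.2) in H3K27me3, against 31.8% (13.9 to 54.9), 55.3% (38.3 to 71.4) and 37.5% (26.4 to 49.7) in IgG at E11.5, E12.5 and E13.5.

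Keratins called at 1 stage only were Krt2, Krt8 and Krt75 (second allele) and Krt12 and Krt81 (first allele) at E12.5, and Krt7 (second allele) and Krt25 and Krt73 (first allele) at E11.5. Their shares at the stage of the call ran from 31.0% in Krt25 to 68.4% in Krt7. Whether these shares differ between the stages was not tested. Krt25, called at E11.5 with 22 of 71 reads on the second allele, had 99 of 193 at E12.5.

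**Figure D4:**
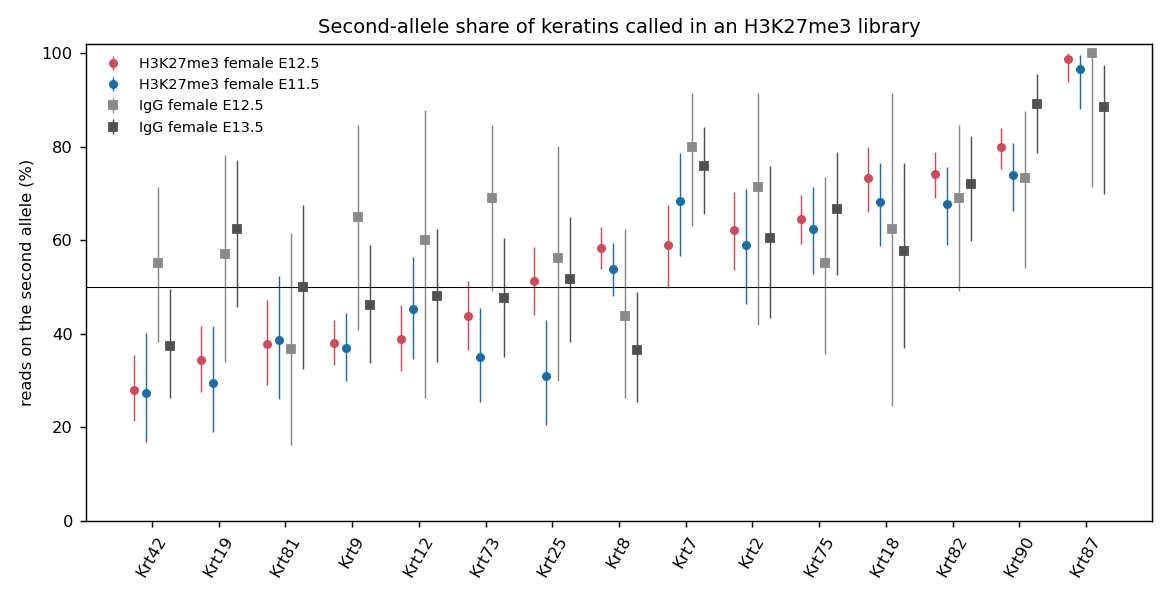
Percent of allele-assigned reads on the second allele (vertical axis) for the 15 keratins whose share was called in an H3K27me3 library, with exact 95% intervals (circles, red E12.5, blue E11.5; squares, IgG of females). The male IgG library is not drawn. Krt87, Krt90 and Krt82 lie above 50% in H3K27me3 and in IgG alike, whereas Krt19 lies under 50% in both H3K27me3 libraries and above it in both IgG libraries.

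Keratin shares were also set against IgG, library against library. With no replicate spread, these tests compare the reads of a pair of libraries and say nothing of the conditions. By Fisher's exact test per gene with Benjamini-Hochberg adjustment over all genes of chromosomes 1 to 19 and X, reads of H3K27me3 and of IgG at E12.5 were divided differently for 1 of 45 keratins, Krt42 (adjusted p = 0.0495, and 0.582 against the IgG of E13.5), while 2.81% of all genes were called. At E11.5, 0 of 36 keratins differed from the male IgG (2.17% of all genes), with 3 at an unadjusted p under 0.05. By the same exact test against the deeper IgG of E13.5, 2 of 51 differed at E12.5, Krt8 (adjusted p = 0.0130) and Krt19 (adjusted p = 0.0193), and 1 of 50 at E11.5, Krt19 (adjusted p = 0.0228), while 6.65% and 4.47% of all genes did. Both comparisons with the IgG of E13.5 share that control. By Fisher's exact test against the IgG of E12.5, the E12.5 shares of Krt8 and Krt19 had adjusted p-values of 0.635 and 0.423.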

How the data were processed

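The authors deposited 1 table a library, without header, with whole-number counts per gene for each of 2 alleles and the fraction on the second. The deposited counts are not normalised, and the deposited fraction equals the second count over the sum. Per the submitters' processing notes, Bowtie2 2.4.2, cutadapt 4.1, deepTools 3.5.1, FastQC 0.11.9, featureCounts, GATK, MACS2 2.2.7.1, MultiQC 1.13, SAMtools 1.11 and Trim Galore 0.6.6 were used, on mm10. Their roles, the treatment of duplicates and how reads were given to an allele are unknown here, and PCR duplicates may remain. The other 3 of the 8 samples listed, labelled as second replicates, were not analysed here.

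Positions and promoters came from RefSeq tables of GRCm38.p6, in which all 53 keratins matched by symbol. The length column was within 5% of the RefSeq span for 44 of them, and differed for Krt2, Krt7, Krt10, Krt19, Krt36, Krt39, Krt40, Krt78 and Krt87. It gave 4111 bases for Krt10, 19271 for Krt7 and 7856 for Krt19. The coordinates printed for these 3 genes are therefore not the exact stretch in which reads were counted. Log2 ratios used a pseudocount of 1 RPM and at least 20 reads in the pair, which understates ratios of sparsely covered genes. Counts at or above 2-fold rest on these log2 ratios. Fold values are ratios without pseudocount, with exact binomial 95% intervals. Allele shares needed 10 reads, and adjusted p-values a threshold of 0.05. Python 3.11.15, numpy 2.4.6, pandas 2.3.3 and scipy 1.17.1 were used, and the steps were tested on simulated data.

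Genes named are the simple-epithelial keratins, the 5 highest and 5 lowest of each level comparison, keratins with a called share and, per group, those with most reads. Others were named after their values were seen. The members and gene lists were chosen with earlier results of these data known. Alternatives changed the control, scaling, pseudocount, read minimum or list.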

Additional observations from a re-analysis of the deposited data

Results flagged for a closer look

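The log2 ratio of H3K27me3 over the stage-matched IgG lay on opposite sides of 0 at the 2 stages for 3 keratins. Krt23 stood at 0.80 at E12.5 and -0.59 at E11.5, a difference of 1.39. Krt6a stood at 0.51 at E12.5 and -0.22 at E11.5, a difference of 0.73. Krt20 stood at -0.05 at E12.5 and 0.22 at E11.5, a difference of -0.27. Each stage is 1 library with its own control, and the differences were not tested. Scaling to the median ratio of all genes put Krt20 at 0.52 at E12.5 and Krt6a at 0.23 at E11.5, above IgG at both stages, while Krt23 stayed below IgG at E11.5 (-0.10).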

How the results depend on the processing

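The median of all keratins stayed above 1 on the log2 scale in both libraries except at E12.5 with a pseudocount of 4 or with no read minimum (0.99), and no keratin at or past 2-fold changed sign. Medians that moved by more than the counting error of the summed reads of their set follow, with counts that changed by more than a set factor. The cause of these moves was not tested. With the IgG of E13.5 as control, the medians were 1.73 (all keratins), 2.46 (simple-epithelial), 1.92 (epidermal and mucosal) and 1.56 (hair, sheath and shaft together) at E12.5, and 1.72 (all), 1.85 (epidermal and mucosal) and 1.48 (hair) at E11.5. Median-of-ratios scaling, which lifts every ratio over IgG, gave 1.605, 2.33, 1.86 and 1.51 at E12.5 and 1.88, 2.76, 2.08 and 1.64 at E11.5, in the same order, and 40 keratins at or above 2-fold at E12.5 in place of 26 (26% of all genes in place of 15.2%). A pseudocount of 4 gave 0.91 (all) and 1.10 (epidermal and mucosal) at E12.5, and 1.16 (all), 1.36 (epidermal and mucosal) and 0.95 (hair) at E11.5. A minimum of 50 reads gave 1.48 (epidermal and mucosal) at E12.5 and 1.52 (all) at E11.5. Adding Krt20 and Krt23 to the simple-epithelial list gave 1.09 at E12.5 and 0.998 at E11.5.

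Other alternatives were chosen after seeing the data. All 3 IgG libraries summed gave 1.52, 2.33, 1.74 and 1.45 at E12.5. Log2 ratios of summed reads gave 1.28 (all) and 1.26 (hair) at E12.5, 1.496 (all) and 1.85 (epidermal and mucosal) at E11.5, and 0.0719 between the stages. Without 13 keratins of families of close copies, the epidermal and mucosal median at E12.5 was 1.51. Between the stages, 0 keratins were at or above 2-fold with a pseudocount of 4, with a minimum of 50 reads or without close copies (0.0121%, 0.229% and 0.751% of all genes). Between the IgG of E13.5 and E12.5 the median was -0.48 with median-of-ratios scaling and -0.47 with a pseudocount of 4, and the count at or below 0.5-fold was 2, 7, 1 and 2 with median-of-ratios scaling, a pseudocount of 0.25, a pseudocount of 4 and a minimum of 50 reads, while 3.4%, 6.9%, 2% and 4.16% of all genes were. Without the 4 keratins 20 points or more from 50% in the IgG of E13.5 (Krt7, Krt82, Krt87 and Krt90), 6 shares were called at E11.5. All 4 were among the 10 called there and p-values were not adjusted anew, so the removal alone set this count. Against the IgG of E13.5, 2 shares differed at E12.5 and 1 at E11.5. Of 332 values of single keratins and smaller counts, 322 kept their size and 10 moved. For a single keratin, a kept size means a move within the counting error of its own reads. That error is wide where reads are few, so these numbers do not show that sparse keratins are stable.

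No paired analysis was possible because each group had 1 library with a file, and no replicate could be left out for the same reason. The planned removal of keratins at least 90% identical in protein was not run, as no protein table was used. Depth limits the hair keratins of chromosome 11 most, with as few as 6 reads at E12.5.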
